A study of Caenorhabditis elegans with 2 samples.

Results

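The regions described here lie on the X chromosome of Caenorhabditis elegans and are ChIP-seq regions of the transcription factor SOX-4 away from genes for structural RNA. They were taken from the list called on both libraries pooled, on build ce11. A region was kept if its signal value was 100 or more and its summit was not within 200 bp of an annotated tRNA, snRNA, snoRNA, rRNA or miRNA gene. This left 252 X regions, and 941 autosomal regions chosen in the same way, out of 30000 listed regions genome-wide. Of the 4260 listed X regions away from structural RNA, 5.92% reached that signal, against 3.76% of 25058 autosomal ones. These 2 percentages and the signal values follow from how the regions were chosen and are given as description. Of the X regions, 99 (39.3%) overlapped the authors' list thresholded by the irreproducible discovery rate (IDR), against 331 autosomal ones (35.2%).

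Chromatin immunoprecipitation followed by sequencing recovers DNA bound by a protein with an antibody, here one against GFP. The worms were of strain OP517, genotype unc-119(tm4063) III; wgIs517, whose stable transgene makes SOX-4 carrying a C-terminal GFP and FLAG tag. There was 1 group, whole late embryos of both sexes collected 4 hours after synchronization by bleaching of eggs, with 2 biological replicates and 1 library each. No library without the tagged protein was analysed here. Regions that such a pulldown would also give therefore cannot be told apart from SOX-4-eGFP binding. All cells of the embryo were pooled, so a site used in few cells and a weakly used site cannot be told apart either. Read counts are not in the lists, and the depth of the libraries is unknown. Intervals below are 95% intervals that cover counting error over regions only, and no p-value is given, because the regions were chosen on these 2 libraries.

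SOX proteins bind DNA through an HMG box, which contacts the minor groove and bends the helix, and many of them regulate cell fate. The worm X chromosome differs from the autosomes in gene content and in its regulation. In embryos with a pair of X chromosomes, the dosage compensation complex, a condensin-based complex guided by the zinc finger protein SDC-2, loads onto the X at recruitment sites and reduces transcription along it. Those recruitment sites often hold the MEX sequence, a motif enriched on X whose central letters are GCGCAGGG.

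GCGCAGGG was searched on both strands of the 6 chromosomes and is shown first because 16 matches fell inside 12 of the X regions. In 8 of these 12 the region overlapped the thresholded list. For those 8 the match nearest the summit is printed with 12 bases to each side, followed by both matches of the region upstream of xol-1, the switch gene of sex determination. Coordinates are on WBcel235, the assembly of ce11, counted from 1, and the sequence is from the RefSeq copy of that assembly. Each sequence is written 5′ to 3′ on the strand named, with the match in capitals.
F20B6.9, chrX:4209254-4209285, minus strand: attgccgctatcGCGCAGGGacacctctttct
cest-16, chrX:6296564-6296595, plus strand: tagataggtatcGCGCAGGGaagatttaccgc
WBGene00020828, chrX:1837880-1837911, plus strand: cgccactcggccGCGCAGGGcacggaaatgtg
C41A3.2, chrX:5429578-5429609, plus strand: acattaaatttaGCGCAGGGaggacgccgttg
gtr-1, chrX:806662-806693, plus strand: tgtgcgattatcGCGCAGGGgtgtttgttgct
nspc-17, chrX:14525888-14525919, minus strand: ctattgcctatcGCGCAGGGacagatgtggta
W02H3.3, chrX:11094214-11094245, minus strand: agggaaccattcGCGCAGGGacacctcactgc
R04E5.9, chrX:8811093-8811124, minus strand: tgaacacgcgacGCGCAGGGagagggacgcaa
xol-1, chrX:8036423-8036454, plus strand: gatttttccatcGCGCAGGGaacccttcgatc
xol-1, chrX:8036389-8036420, minus strand: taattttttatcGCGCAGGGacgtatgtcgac
Each gene named here is the one with the nearest protein-coding 5′ end, at up to 15174 bp. The name gives a position and does not assign the region to that gene.

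A window of 101 bases centred on the summit is printed next for 5 of the strongest X regions. They show the kinds of sequence found there, with CGCACA or its reverse complement in capitals where present.
T13C5.6, chrX:6207820-6207920, minus strand: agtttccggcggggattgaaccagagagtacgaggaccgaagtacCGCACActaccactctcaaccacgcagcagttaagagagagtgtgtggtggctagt
kin-29, chrX:2852595-2852695, minus strand: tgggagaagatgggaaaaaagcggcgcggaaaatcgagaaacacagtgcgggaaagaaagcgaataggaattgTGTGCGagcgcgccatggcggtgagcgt
spc-1, chrX:3127770-3127870, plus strand: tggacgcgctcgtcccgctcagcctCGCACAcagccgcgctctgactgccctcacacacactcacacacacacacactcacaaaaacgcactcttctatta
spat-3, chrX:4606464-4606564, plus strand: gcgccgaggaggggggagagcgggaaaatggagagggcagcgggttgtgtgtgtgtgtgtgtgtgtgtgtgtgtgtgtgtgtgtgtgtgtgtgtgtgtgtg
C24H10.4, chrX:5056367-5056467, plus strand: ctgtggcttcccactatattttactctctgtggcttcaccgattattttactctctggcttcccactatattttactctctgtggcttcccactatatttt
T13C5.6 and kin-29 are promoter regions, and the other 3 lie in intergenic sequence, that is, outside promoters and protein-coding genes. The spc-1 and spat-3 windows hold long runs of alternating CA or TG. The C24H10.4 window is a repeat in which all bases are soft-masked, that is, marked as repeats in the reference file.

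Signal values of the X regions ran from 100.04 to 685 with a median of 121, and the autosomal median was 117. The signal value is the peak caller's measure relative to a control alignment and has no unit. The strongest X region lay 183 bp upstream of T13C5.6 (chrX:6207725-6208025), with a signal of 685 in the pooled list, 379 in replicate 1 and 305 in replicate 2. It stood at rank 10 in the pooled list and at ranks 14 and 13 in the replicates, so both libraries placed it high. The next lay 514 bp upstream of ftt-2 (chrX:11605796-11606082), which encodes a 14-3-3 protein, with a signal of 454 in the pooled list, 254 in replicate 1 and 202 in replicate 2. A further region stood beside it at a signal of 176 in the pooled list. The repeat region nearest C24H10.4 followed with a signal of 277.

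The region 741 bp upstream of spc-1, the gene of alpha spectrin, had a signal of 264, with 138 in replicate 1 and 124 in replicate 2. That near spat-3, a gene of a RING finger protein, lay 586 bp upstream at a signal of 260, with 127 and 132 in replicates 1 and 2. Among promoters, gly-13, a gene of an N-acetylglucosaminyltransferase, had a region of signal 240 (149 in replicate 1, 88.4 in replicate 2). The promoter of kin-29, a gene of a salt-inducible kinase family member, had one of 234 (119 in replicate 1, 124 in replicate 2). The promoter regions of serp-1.1 and ZK816.3 had signals of 206 and 205. A region in an intron of the glutamate transporter gene glt-1 stood at 197, and those in the promoters of ugt-50, a UDP-glucuronosyltransferase gene, and C14A11.9 at 189 and 188. Intergenic regions among the strongest 20 also lay near fbxb-58 (226), F52G3.8 (221), F09C8.2 (217) and F55G7.5 (204). Of the 17 X regions of signal 200 or more, 6 (35.3%) lay within 200 bp of a non-coding RNA gene of no stated class. Of the 92 autosomal ones 12 (13.0%) did. The 6 were those at T13C5.6, ftt-2, spat-3, F52G3.8, F09C8.2 and ZK816.3.

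Around the threshold the values were close together. The 5 X regions just inside it had signals of 100.04 to 100.32, and the 5 just outside it 99.55 to 99.87, with 2 promoter summits in each set.

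Both replicates had a region at nearly all of these sites, but ranked most of them differently. A region overlapped by 1 bp or more in the list of replicate 1 at 251 of the 252 X regions and in the list of replicate 2 at 246. As each replicate list also holds 30000 regions and the pooled list contains both libraries, such overlap is partly set by the choice. Among the strongest 1507 regions of each replicate, the number that reached 100 in the pooled list, stood 164 X regions (65.1%) in replicate 1, against 646 autosomal ones (68.7%). In replicate 2 the counts were 173 on X (68.7%) and 567 on autosomes (60.3%). Both replicates placed 109 X regions (43.3%, Wilson 37.3 to 49.4) there, against 374 autosomal ones (39.7%, 36.7 to 42.9), so the intervals overlap.

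Placement by both replicates followed strength, which the pooled signal partly sets. All 17 X regions of signal 200 or more were among the strongest 1507 in both replicates, against 98.9% of the 92 autosomal ones. Of the X regions between 130 and 200, 73.7% were, against 86.8% of autosomal ones. Of those between 100 and 130, which make up 159 of the 252, 22.6% were, against 13.7%. Across the 245 X regions listed in both replicates, signal values had a Spearman rho of 0.14, against 0.26 across 927 autosomal ones. These are descriptions across regions that share the same 2 libraries and were chosen on their pooled signal. A cut on the pooled signal, to which both replicates contribute, can itself lower rho. How far it did so was not tested, so rho does not measure how well the libraries agree. At 9 places on X a pair of summits lay within 500 bp. At all of these but ftt-2 both regions met the same region in each replicate list. They thus entered the counts and rho with the same replicate values. The region at mans-3, a mannosidase gene (signal 187), had none overlapping it in the list of replicate 2.

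**Figure D1:**
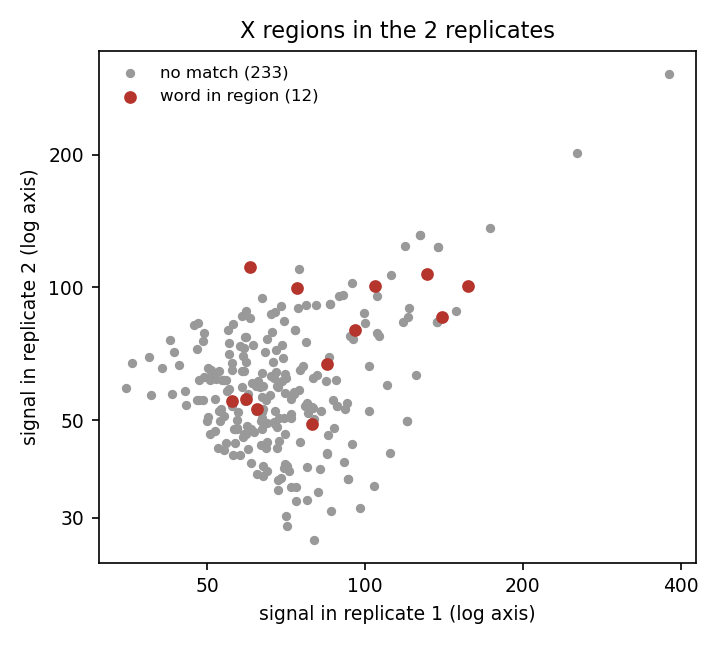
Signal value in replicate 2 against signal value in replicate 1, both on log axes, for the 245 X regions listed in both replicates. Red points are the 12 regions that hold GCGCAGGG, and grey points are the other 233. The regions at T13C5.6 (379 in replicate 1, 305 in replicate 2) and ftt-2 (254 and 202) stand apart at the upper right, while most others form a cloud with little order between replicates. The choice by pooled signal, to which both replicates contribute, can itself lower that order.

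The question of where the X stands among the chromosomes was addressed by density. The X had 14.2 regions per Mb (exact interval 12.5 to 16.1), against 11.4 (10.7 to 12.2) on the 5 autosomes together, a ratio of 1.25 (1.08 to 1.44). The autosomes themselves ran from 7.84 per Mb on V and 9.32 on IV through 12.3 on II and 14.3 on I to 15.2 on III. The X lay inside that range, and its interval overlapped those of I, II and III. Per 1000 protein-coding genes the X had 92.3 regions, against 32.8 on V to 79.5 on III. Its value was above that of each autosome by this measure, but its counting interval overlapped those of I and III. The X has fewer genes per Mb, 154 against 209.

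The ratio per Mb was 1.35 (1.06 to 1.71) at a signal of 130 or more and 0.861 (0.481 to 1.45) at 200 or more, where there were 17 X regions against 92 autosomal ones. The last interval includes the ratio over all regions. Replicate 1 alone gave 1.03 (0.880 to 1.19), whose interval includes 1, and replicate 2 alone gave 1.32 (1.15 to 1.51). These sets were not cut at a signal of 100, which fewer regions reach in a single replicate. Replicate 1 alone had 215 X and 977 autosomal regions, and replicate 2 alone had 269 and 949. Among pooled regions with no soft-masked base within 50 bp of the summit the ratio was 2.08 (1.69 to 2.56), an alternative chosen after seeing the data. The RNA filter had removed 97 of the 349 X regions of signal 100 or more (27.8%), against 217 of 1158 autosomal ones (18.7%). Of the regions kept, 82 on X (32.5%) were within 200 bp of a non-coding RNA gene of no stated class, against 136 (14.5%) on autosomes. Such genes with that margin cover 6.24% of the X and 2.91% of the autosomes. Without these regions the ratio was 0.984 (0.829 to 1.16), an interval that includes 1. It was taken over the full chromosome lengths, with the bases near such genes still counted.

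**Figure D2:**
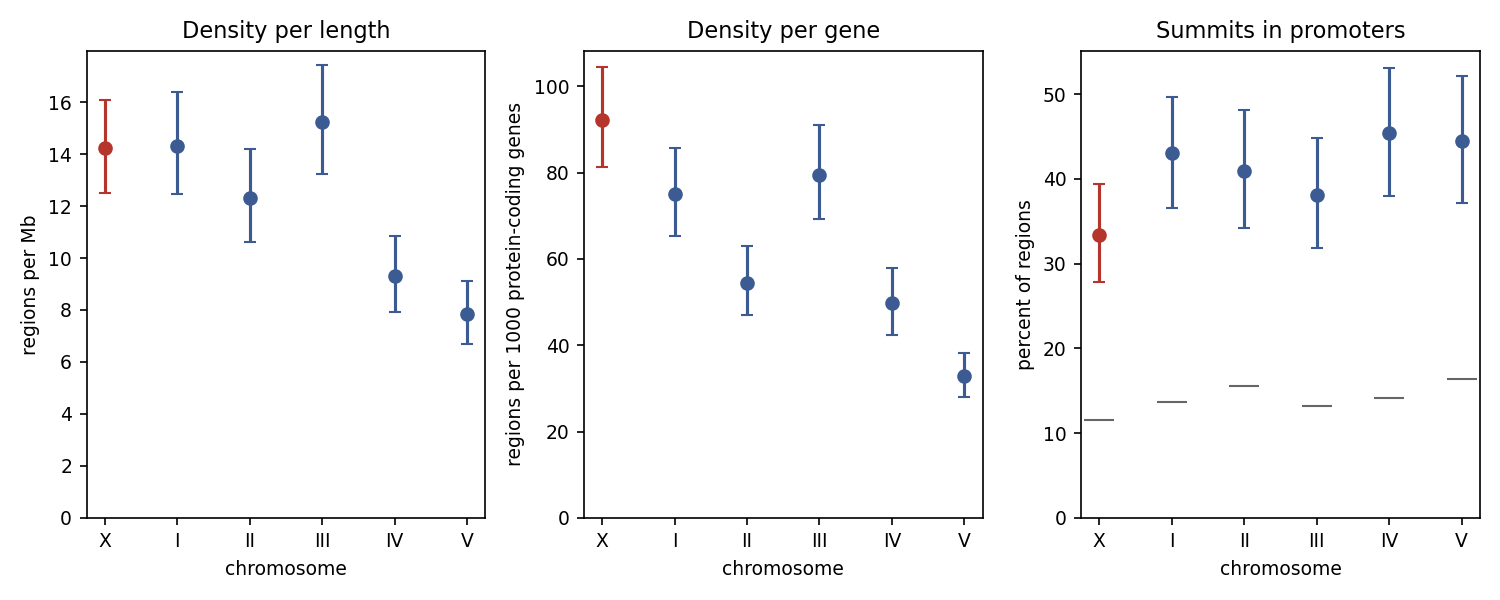
Regions per Mb (left), regions per 1000 protein-coding genes (middle) and percent of summits in promoters (right) for X (red) and the autosomes I to V (blue), with 95% intervals as bars and grey dashes for the percent of bases in promoters. The X has 14.2 regions per Mb, inside the range of the autosomes (7.84 to 15.2), and a promoter share of 33.3%, below each of them (38.1% to 45.4%), with an interval that overlaps those of several autosomes.

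Counted in windows of 1 Mb, the X regions had a lower ratio of variance to mean than those of each autosome. The 17 full windows held 7 to 20 regions with a median of 15, and the variance of these counts was 0.949 times their mean. On the autosomes that ratio ran from 1.29 on II to 3.31 on IV. It rests on 13 (III) to 20 (V) windows per chromosome and has no interval. Whether the X differs from the autosomes in evenness was not tested. Of 3 equal parts of the X, the middle part held 66 regions, the left part 92 and the right part 94. The middle part thus had 26.2% of the regions and 35.8% of the protein-coding genes of the X. On the autosomes the middle part held 21.5% (IV) to 32.9% (V) of regions, in each case a smaller share than of genes. The widest gap between neighbours on X was 529.9 kb, from position 12721803 to 13251684. On the autosomes the widest gaps were 508.9 to 1016 kb.

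At a range of 10 kb the X and the autosomes did not separate. A neighbour within 10 kb stood beside 90 X regions (35.7%, Wilson 30.1 to 41.8), against 333 autosomal ones (35.4%, 32.4 to 38.5). The difference was 0.33 percentage points (Newcombe interval -6.13 to 7.11) and its sign changed in 7 of 10 other settings, among them the list of replicate 1 alone (-3.54). Within 500 bp the X share was higher. Pairs of summits that close made up 18 X regions (7.14%), in 9 pairs, against 32 autosomal ones (3.40%). On the single autosomes the share ran from 1.22% on V to 5.56% on I. These pairs lay at ftt-2, spc-1, spat-3, F52G3.8, twf-2, grk-1, F56B6.6, unc-84 and F55A4.3. At all of these but ftt-2 both regions of the pair met the same region in each replicate list, so they are not independent of each other.

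Fewer X summits than autosomal ones lay in promoters, taken as the 500 bp before and the 100 bp after a protein-coding 5′ end. On X 84 of 252 did (33.3%, Wilson 27.8 to 39.4), against 397 of 941 on autosomes (42.2%, 39.1 to 45.4). The difference was -8.86 percentage points (Newcombe interval -15.2 to -2.07). Such windows cover 11.5% of the X and 14.7% of the autosomes, so summits were in them 2.89 times as often as bases on X and 2.87 times on autosomes. Intergenic sequence, taken as all sequence outside promoters and protein-coding genes, can hold non-coding RNA genes. It held 106 X summits (42.1%), against 26.04% of autosomal ones, and makes up 37.8% of the X and 28.3% of the autosomes. Introns held 49 X summits (19.4%, against 24.1%) and coding exons 11 (4.37%, against 5.74%). The median distance to the nearest 5′ end was 788 bp on X and 599 bp on autosomes.

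The promoter shares were furthest apart among the strong regions. At a signal of 200 or more, 5 of 17 X summits were in promoters (29.4%, Wilson 13.3 to 53.1), against 69 of 92 autosomal ones (75%, 65.3 to 82.7). The 5 were those of T13C5.6, gly-13, kin-29, serp-1.1 and ZK816.3. Of the other X regions in that class 10 were intergenic, 1 lay in an intron of mom-1, a gene needed for Wnt secretion, and 1 in a coding exon of the polyketide synthase gene pks-1. From 130 to 200 the shares were 40.8% of 76 on X and 53.9% of 228 on autosomes, and from 100 to 130 they were 30.2% on X and 33.01% on autosomes. Listed regions of signal under 100, which the selection left out, had 17.8% on X and 17.7% on autosomes. Among regions with no soft-masked base in the window, an alternative chosen after seeing the data, the difference was 6.97 percentage points in the other direction (40.7% on X, 33.8% on autosomes).

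**Figure D3:**
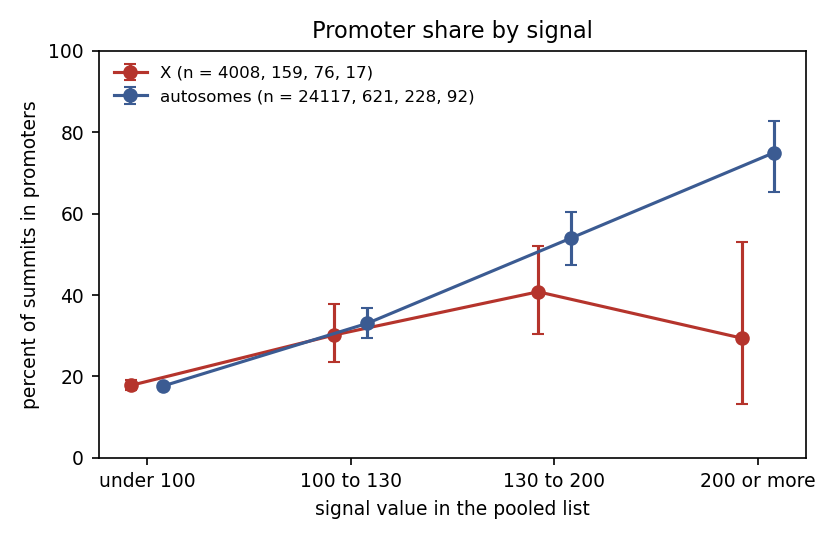
Percent of summits in promoters by signal value of the region in the pooled list, with Wilson 95% intervals, for X (red) and autosomes (blue). The shares nearly coincide for regions under 100 (17.8% on X, 17.7% on autosomes) and are furthest apart at 200 or more (29.4% of 17 X regions and 75% of 92 autosomal ones).

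The sequence under X summits was richer in G and C than under autosomal ones. GC content within 50 bp of the summit was 51.2% ± 7.0 (SD, n = 252 windows) on X and 48.7% ± 8.89 (SD, n = 941 windows) on autosomes, a difference of 2.51 percentage points (1.48 to 3.55). Flanks 300 bp away had 36.9% on X and 37.5% on autosomes, and the whole chromosomes 35.2% on X and 35.5% on autosomes. The rise was also broader on X: at 110 bp left of the summit the GC content was 45.7% on X and 41.4% on autosomes. Among promoter regions the difference at the summit was 4.47 points (52.2% on X, 47.7% on autosomes), and outside promoters 1.32 points (50.7% on X, 49.4% on autosomes).

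Repeat content differed between the groups at the same time. Soft-masked bases made up 12.5% of X summit windows, against 25.4% of autosomal ones, and 30.6% of the whole X, against 36.8% of the autosomes. No soft-masked base was present in 135 X windows (53.6%), against 302 autosomal ones (32.1%). Within these the GC content was 52.6% on X and 53.4% on autosomes, a difference of -0.74 points (-2.10 to 0.62).

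**Figure D4:**
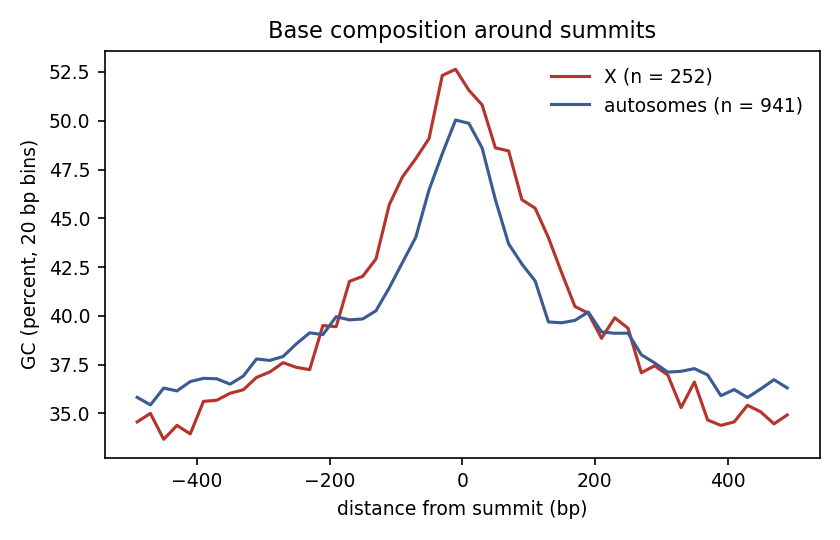
GC content in bins of 20 bp against distance from the summit in bp, for 252 X regions (red) and 941 autosomal ones (blue). Both lines peak at the summit, and the X line is higher within about 150 bp of it, with 45.7% against 41.4% at 110 bp to the left.

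The words of 6 letters with the largest excess at X summits were runs of CA and of pyrimidines, and those furthest below the autosomes were rich in A and T. Each was searched on both strands within 50 bp of the summit, and words that overlap in sequence share matches. Of 2080 words of 6 letters, CACACA had the largest excess on X, in 66 windows (26.2%), against 132 (14.03%). ACACAC was in 24.6% of X windows and 13.0% of autosomal ones, AAGAGG in 18.7% on X and 7.23% on autosomes, CTCTTC in 23.0% on X and 11.8% on autosomes, and ACACTC in 15.1% on X and 6.06% on autosomes. In flanks CACACA stood at 6.75% on X and 5.79% on autosomes, and in all windows of 101 bases at 4.88% on X and 4.14% on autosomes. Below the autosomes stood AAAAAT (11.5% on X, 26.6% on autosomes), which had the largest difference in either direction, AAAATT (6.35% on X, 18.3% on autosomes), AAAAAA (13.1% on X, 24.8% on autosomes), CAAAAA (12.3% on X, 23.4% on autosomes) and GAAAAA (17.9% on X, 28.2% on autosomes). These 10 words were picked by their difference and are descriptions.

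CGCACA, known from earlier results on these data, was in 49 X windows (19.4%, Wilson 15.0 to 24.8), against 107 autosomal ones (11.4%, 9.50 to 13.6). It was in 2.78% of X flanks and 2.44% of autosomal ones, and in 2.20% of all X windows of that length and 1.961% of all autosomal ones. The difference was 8.07 percentage points (Newcombe interval 3.15 to 13.7). It was 3.34 points (-5.52 to 13.7) at a signal of 130 or more and 3.36 points (-0.13 to 7.83) within 25 bp of the summit, and both intervals include 0. Outside promoters it was in 30 of 168 X windows (17.9%), against 38 of 544 (6.99%), and in promoters in 22.6% of X windows, against 17.4%. Replicate 2 alone gave a difference of 2.26 points (-1.72 to 7.05), and replicate 1 alone gave 6.76. Of the 17 strongest X regions 5 held the word, those at T13C5.6, spc-1, kin-29, F09C8.2 and ZK816.3.

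Other words were at similar levels on both or rarer on X. The box GGGCGG was in 4.76% of X windows, against 11.7% of autosomal ones, with 1.39% of X flanks and 3.03% of autosomal flanks. ACAAAG or ACAATG, the core letters that SOX proteins recognise, were in 15 X windows (5.95%, Wilson 3.64 to 9.59), against 89 autosomal ones (9.46%, 7.75 to 11.5). Both were below all windows of that length, with 13.1% on X and 10.8% on autosomes. This was not particular to the SOX core letters. All X windows held TTTAAA in 15.4%, against 2.78% at X summits, and all autosomal windows in 16.5%, against 4.99%. For TGATAA all X windows stood at 9.96%, against 2.38%, and all autosomal windows at 9.22%, against 2.87%. CAGCTG went the other way on X, with 1.80% of all windows, against 4.76%. Whether the GC content of summits plays a part was not tested. GAGAGA was in 20.6% of X windows and 19.9% of autosomal ones, with a difference of 0.76 points (-4.50 to 6.70). GTTCGA, which the internal promoter of tRNA genes often holds, was in 2.78% on X and 3.29% on autosomes. The looser form GTTCNANNC was in 7 X windows (2.78%), against 2.44%, and T13C5.6 and ZK816.3 were among the 7. All X windows of that length held it in 3.82%. TTTAAA was in 2.78% of X windows and 4.99% of autosomal ones, TGATAA in 2.38% on X and 2.87% on autosomes, CAGCTG in 4.76% on X and 3.61% on autosomes, and CACGTG in 1.19% on X and 2.02% on autosomes.

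GCGCAGGG stood at summits of the chosen X regions and at none of the chosen autosomal regions. Its shorter form GCGCAG, searched first, was in 24 X windows (9.52%), against 59 (6.27%), with a difference of 3.25 points whose interval included 0 (-0.25 to 7.73). The word of 8 letters, chosen after seeing the data, was within 50 bp of the summit in 10 X regions (3.97%, Wilson 2.17 to 7.15), against 0 of 941 autosomal ones (up to 0.407%). No X flank held it, against 3 autosomal flanks. The whole X has 81 matches (4.57 per Mb), against 233 on the autosomes (2.82 per Mb). Inside the chosen regions lay 16 of the 81 X matches (19.8%), though those regions cover 0.576% of the chromosome, against 1 of the 233 autosomal matches (0.429%). Replicate 1 alone gave 6 X regions and 0 autosomal ones, and replicate 2 alone gave 10 X regions and 1 autosomal one.

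The word was picked for its presence in these X regions, which were themselves chosen on signal, so these counts are a description. Over all listed X regions away from structural RNA 32 held the word, of which 12 are among the 252 and 20 had a signal under 100. On the autosomes 51 held it, of which 1 reached a signal of 100 and 50 did not. The median distance from match to summit was 29 bp for the 16 X matches, and 12 of them lay within 50 bp. In X regions of signal under 100, 8 of 21 matches lay that close, and in autosomal regions of signal under 100, 16 of 52 did.

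The letters before the word differed between matches. ATC stood directly before it at 9 of the 16 matches in the X regions (56.3%), at 4 of the 65 other X matches (6.15%), and at 2 of 233 autosomal ones (0.858%). In the sequences printed above ATC is seen at F20B6.9, cest-16, gtr-1, nspc-17 and both matches near xol-1. Other letters were counted too. TC stood before 62.5% of the 16 matches and 13.8% of the 65, and A after 75% and 33.8%. ATC before together with A after was at 50% and 3.08%. The letters were counted on matches of a word chosen after seeing the data, so these shares are descriptions.

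Of the 12 X regions with the word, 1 had its summit in a promoter, that of R04E5.9, and 4 were among the 17 X regions of signal 200 or more. The region near F20B6.9 (chrX:4209076-4209491) had a signal of 259 in the pooled list, 157 in replicate 1 and 100.9 in replicate 2. That in the mom-1 intron, nearest cest-16 (chrX:6296367-6296782), had 239 in the pooled list, 131 in replicate 1 and 108 in replicate 2, and held 2 matches. The region near WBGene00020828 (chrX:1837809-1837913) had 232, with 140 and 85.7 in replicates 1 and 2. That in the pks-1 exon, nearest C41A3.2, had 201 in the pooled list. In these 4 both replicates were within their strongest 320 regions.

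The regions near gtr-1 (176, with 2 matches), nspc-17 (173), W02H3.3 (170, with 2 matches) and R04E5.9 (144) followed in the pooled list. The W02H3.3 region was uneven between libraries, with 60.2 in replicate 1 and 112 in replicate 2. The other 4 did not overlap the thresholded list, and lay near Y41G9A.17 (119), ZK813.5 (111), F22H10.2 (110) and xol-1 (109). The xol-1 region (chrX:8036223-8036638) lay 4882 bp upstream of its 5′ end and had 55.8 in replicate 1 and 55.3 in replicate 2.

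**Figure D5:**
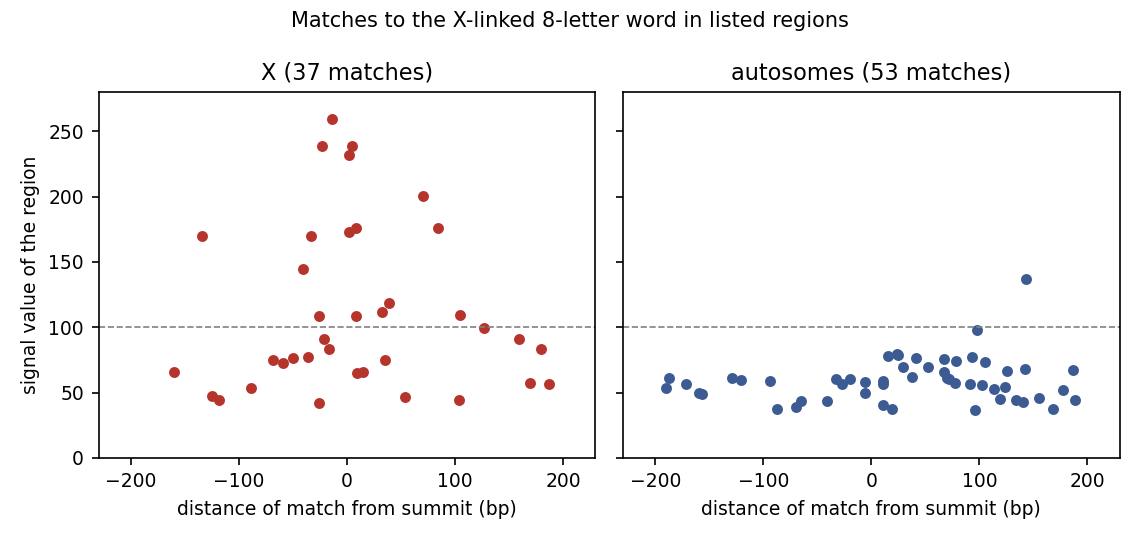
Signal value of the listed region against the distance in bp from each match of GCGCAGGG to the region's summit, on X (left) and autosomes (right), with the minimum signal of 100 as a dashed line. Above that line lie 16 X matches, 12 of them within 50 bp of the summit, and 1 autosomal match.

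By gene, 199 of 2731 X protein-coding genes (7.29%) had a 5′ end within 2000 bp of a chosen summit, against 1061 of 17242 autosomal genes (6.15%). The gene groups were listed with earlier results known, and their shares are counts to be read against these percentages. Of the nuclear receptor genes named nhr, 6 of 23 on X carried a region (26.1%), against 7 of 246 on autosomes (2.85%). They were nhr-3 (signal 123), nhr-1 (123), nhr-91 (117), nhr-32 (110), nhr-40 (102.9) and nhr-48 (101.2). None of the 6 was in the thresholded list. Of the homeobox genes named ceh, 3 of 18 on X carried one (16.7%), against 0 of 45. These were the POU gene ceh-18 (129, in its intron), the ONECUT gene ceh-39 (108, promoter) and ceh-54 (107, in its intron), whose region had none overlapping it in the list of replicate 2.

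Of the listed genes of sex determination and dosage compensation, 2 of 6 on X carried a region, against 0 of 17 on autosomes. Both encode X signal elements, which report the number of X chromosomes to xol-1. They were ceh-39, with its summit 155 bp upstream, and the nuclear receptor gene sex-1 (signal 104.8), with its summit in an intron 873 bp downstream of the 5′ end. The ceh-39 region ranked 3091 in replicate 1 and 698 in replicate 2. Of the SOX family 1 of 4 on X carried one, sox-2 (106), whose summit lay 198 bp upstream, against 0 of 1 on autosomes.

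Among structural genes, 4 of 27 collagen genes on X carried a region (14.8%), against 12 of 129 (9.30%). They rested on 3 regions in coding exons, at col-183 (109), at col-164 (103.2) and in col-9 (102), upstream of col-44. Of the ribosomal protein genes, 1 of 2 on X did, rpl-11.2 (141, promoter), against 23 of 76 (30.3%). No X gene carried one among 32 neuropeptide genes named flp or nlp, 10 twk potassium channel genes, 6 acr acetylcholine receptor genes, 6 hlh genes and 6 unc genes of channels and synapses. On the autosomes the hlh group had 3 of 19, the neuropeptides 1 of 70, the unc group 2 of 15, the twk group 0 of 34 and the acr group 0 of 15.

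Some X genes carried several regions. The casein kinase 1 gene kin-20 had 4 nearest its 5′ ends, with signals of 115.9, 113.0, 104.3 and 103.1, of which 1 was in a promoter, 2 in introns and 1 intergenic. The heterochronic gene lin-14 had 2 within 2000 bp, 1 in a promoter (103.1) and 1 in an intron (143). A further region lay in a lin-14 intron at 124. The pair at unc-84, which encodes a SUN domain protein of the nuclear envelope, had signals of 144 and 112.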

How the data were processed

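Anti-GFP ChIP-seq regions came from 1 group of 2 biological replicates. Per the deposited descriptions, regions were called by the authors on each replicate and on both pooled, each against a control alignment, and thresholded by IDR. Not given in the sources used here are the aligner, the peak caller and the IDR threshold. A region's signal value is the score that the authors deposited, not scaled between libraries, and was used to choose and rank regions within a list. The summit offset is another column as the authors deposited it. No read counts are in the lists, so depth and the sampling error of a signal value are unknown.

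Positions are summits on ce11. Gene models came from Ensembl (WBcel235, release 115), which is the assembly of ce11, and sequence was from the RefSeq copy. The ce10 pooled list served as an alternative. A single listed region at a chromosome end was left out of summit windows. Shares have Wilson 95% intervals, differences of shares Newcombe intervals, densities exact Poisson intervals and their ratio an exact conditional binomial one, and the GC difference a normal interval of its means. With 1 X and 5 autosomes an exact permutation test cannot go below p = 0.167, so none was run. The members and gene lists were chosen with earlier results of these data known.

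Named were the genes nearest the 20 strongest X regions, the 2 strongest of each gene list, and the 5 words of 6 letters furthest above and below the autosomes. Regions holding GCGCAGGG, further members of the lists and genes with several regions were named after their values were seen. Procedures were tested on simulated data. Calculations used scipy 1.17.1, numpy 2.4.6 and pandas 2.3.3 under Python 3.11.15, and plots used matplotlib 3.10.9.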

Additional observations from a re-analysis of the deposited data

How the results depend on the processing

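The density ratio of 1.25 was 0.861 at signals of 200 or more and 0.984 without regions near unclassified RNA genes, over full chromosome lengths. It was 1.69 per 1000 genes and 2.08 with no soft-masked base in the window. From single replicates it ran from 1.03 to 1.32. The promoter difference of -8.86 points was -21.3 at 130 or more, -45.6 at 200 or more and 6.97 with no soft-masked base, and -8.98 to -6.90 from single replicates. The difference in neighbours within 10 kb, 0.33 points, was -7.10 at 130 or more, -4.35 at 200 or more, -6.28 without unclassified RNA genes, -2.43 with summits within 500 bp merged, -0.40 at 50 kb and -1.03 for gaps scaled by their mean, and -3.54 to 4.42 from single replicates. The GC difference of 2.51 points was 4.47 in promoters, 1.32 outside them and -0.74 with no soft-masked base, and 1.90 to 2.97 from single replicates. The CGCACA difference of 8.07 points was 1.15 at 200 or more, 3.34 at 130 or more, 3.36 within 25 bp and 13.1 with no soft-masked base, and 2.26 to 6.76 from single replicates. GCGCAGGG was at 10 X summits, at 6 within 25 bp, and at 6 to 10 from single replicates. The cause of these shifts was not tested. The settings on soft-masked bases and on GCGCAGGG were chosen after seeing the data. Of all settings tried, 7 of 12 for density, 8 of 11 for promoters, 3 of 10 for neighbours, 10 of 13 for GC and 11 of 13 for CGCACA kept the direction and stayed inside the 95% interval of the reported difference or ratio. That interval is wide for CGCACA and for neighbours, so values inside it include some that moved by over 1.5 times. For GCGCAGGG 3 of 5 counts were within 1.5 times the reported one. No paired analysis was possible because there is 1 group. Without read counts, weak regions near a signal of 100 have unknown error.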
